A study of Rattus norvegicus with 6 samples.

Results

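In the assembled transcriptome of rat lung, 993 of 70376 transcripts were antisense exonic transcripts longer than 200 bases. They were chosen by the way they lie on the genome: each was an assembled transcript without an annotated identifier, carried the class code x, which marks an overlap with an exon of a known gene on the opposite strand, and passed the length limit. No expression value entered the choice, although an assembled transcript exists only where reads of these libraries built it. They made up 2.39% of the 41501 assembled transcripts, came from 724 assembly loci and lay opposite 643 named genes, called sense genes here.

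The lungs came from Sprague–Dawley rats aged 7 weeks at the start of the study. The 3 rats of the model group received 1 intratracheal dose of bleomycin at 7 mg/kg, a cytotoxic antibiotic used to induce lung fibrosis, and the 3 rats of the control group received the same volume of saline. The lungs were taken on day 28, and 1 strand-specific, ribosomal RNA depleted library was made per rat. The rats carried no engineered allele, and each library held the RNA of whole lung, in which fewer cells of a type and less RNA per cell cannot be told apart.

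A natural antisense transcript is made from the DNA strand opposite a gene, so that part of its sequence is complementary to the gene's own RNA. Some antisense transcripts act in cis, by recruiting chromatin modifiers or by interfering with transcription of the sense gene, and others pair with the sense RNA and alter its splicing, stability or translation. In short-read data an antisense transcript is placed by the strand of its reads or by the orientation of its splice sites. Its level is estimated apart from that of the sense gene only as far as the strand of shared bases is known.

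The sequences below show what lies opposite these transcripts. The sense genes included 2 microRNA genes, Mir30a and Mir342, and their mature products from RefSeq (GRCr8) are printed because the antisense transcripts reach or cover their hairpins, 5′ to 3′ with the seed, bases 2 to 8, in capitals.
rno-miR-30a-5p: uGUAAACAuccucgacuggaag
rno-miR-30a-3p: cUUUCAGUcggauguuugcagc
rno-miR-342-5p: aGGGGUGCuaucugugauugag
rno-miR-342-3p: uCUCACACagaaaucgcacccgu
The seed of rno-miR-30a-5p was found in mature products of 5 miRNA genes in the RefSeq table, Mir30a included. The other 3 seeds were shared by no other product. The antisense transcript of Mir30a (MSTRG.36600.1, chromosome 9, 1 exon of 15300 bases) reached the hairpin by only 3 bases, whereas that of Mir342 (MSTRG.31467.1, chromosome 6, 2 exons, 10322 bases) ran past both ends of the 99-base hairpin.

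The other sequences are promoters of sense genes whose annotated start was crossed by an antisense transcript that passed the thresholds between the groups, described further on. Of 6 such genes, 3 had an entry among 33469 RefSeq promoters (GRCr8, 250 bases before to 50 after the start, written in the direction of the sense gene), and 2 are printed. Coordinates of the assembled transcripts come from a build that the sources used here do not name, so whether the RefSeq start is the start that was crossed was not tested. Capitals mark GGGCGG or TATAAA on either strand.
Lmx1b, chr3:37338508-37338807, minus strand: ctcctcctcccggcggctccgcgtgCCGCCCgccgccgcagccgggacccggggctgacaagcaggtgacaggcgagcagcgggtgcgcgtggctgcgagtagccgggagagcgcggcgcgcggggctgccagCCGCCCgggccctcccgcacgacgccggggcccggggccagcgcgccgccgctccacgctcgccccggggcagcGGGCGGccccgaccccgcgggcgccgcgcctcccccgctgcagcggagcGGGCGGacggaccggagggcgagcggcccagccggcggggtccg
Calcrl, chr3:89932567-89932866, minus strand: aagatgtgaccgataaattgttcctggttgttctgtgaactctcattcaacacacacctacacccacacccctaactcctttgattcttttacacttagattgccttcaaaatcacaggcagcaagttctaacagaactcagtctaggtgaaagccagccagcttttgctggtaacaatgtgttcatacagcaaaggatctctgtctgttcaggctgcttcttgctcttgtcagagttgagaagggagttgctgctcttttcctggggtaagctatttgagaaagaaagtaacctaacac
The 2 promoters differed in composition. That of Lmx1b held 54 CG dinucleotides, where the median of all promoters was 7, and 4 matches of GGGCGG, a motif in 33.1% of all promoters. That of Calcrl held 1 CG dinucleotide and no match of either motif. TATAAA was in 14.2% of all promoters and in neither of these. The promoter of LOC100362384, which also had an entry but is not printed, held 9 CG dinucleotides and neither motif.

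The antisense exonic transcripts were mostly short, spliced models over long stretches of the genome. Of the 993, 943 (94.96%) were spliced and 694 (69.9%) had exactly 2 exons. Their exonic length ran from 202 to 35660 bases with a median of 1394, and the bases spliced out had a median of 17680. A splice site gives a model its strand: no spliced assembled transcript of the table lacked a strand, while 11775 of 16860 single-exon ones (69.8%) did. Whether the assembly used the strand of the reads was not tested. Nor was the part of sense reads in the antisense levels. Of the antisense transcripts, 444 lay wholly inside the span of the sense gene, 176 ran past its start, 168 past its end and 134 past both, and for 71 no annotated transcript of that name overlapped. Where there was an overlap of spans, its median was 6343 bases, but in 35 cases it was under 10 bases. Only 13 of the spliced ones (1.38%) had a mirror image, a spliced assembled transcript on the other strand with both ends within 20 bases.

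Their sense genes were of several kinds. Of the 993 antisense transcripts, 769 lay opposite a gene with a symbol, 148 opposite one with a clone or locus name, 74 opposite an RNA family or a ribosomal RNA, and 2 opposite a microRNA gene. Most sense genes (497) had a single antisense transcript and 146 had more. The length limit fell between MSTRG.21251.1 opposite RT1-N2, with 200 bases and 0.486 to 2.83 FPKM, and MSTRG.30991.1 opposite Zfyve26 and MSTRG.15454.1 opposite AABR07027811.2, each with 202 bases.

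Levels are given in FPKM, fragments per kilobase of transcript, scaled to the mapped fragments of the library, so that transcripts of different length can be compared. The mean FPKM over the 6 libraries had a median of 2.09, and it reached 10 in 95 and 100 in 22 of the 993. Among those above 0 in at least 3 libraries (902), the median was 2.11, compared with 1.76 for all 39794 assembled transcripts and 1.01 for 25073 annotated ones passing the same filter. Assembled transcripts are listed because reads of these libraries built them, whereas annotated ones are listed at any level. The higher median than among annotated transcripts is therefore not a result about antisense transcripts. In all, 750 (75.5%) were above 0 in all 6 libraries and 91 in fewer than 3.

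A single antisense transcript was usually less abundant than its sense gene summed over transcripts. Antisense transcripts of the same gene were not added together here, and setting a single transcript against a sum favours a lower antisense level. The comparison depended on which transcripts counted as sense. For 769 tested antisense transcripts outside the RNA families whose sense gene could be tested, the antisense level was a median of 0.175 times the sense level when annotated and same-strand assembled transcripts were added together, and 87 (11.3%) exceeded it. Against annotated transcripts alone the median was 0.872 and 363 (47.2%) exceeded it, a sum that leaves out every assembled isoform of the gene. Levels of the antisense transcript and of the sense gene with all its isoforms went weakly together across these transcripts (r = 0.33 on the log2 scale, n = 769, a description over transcripts that share the 6 libraries).

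**Figure D1:**
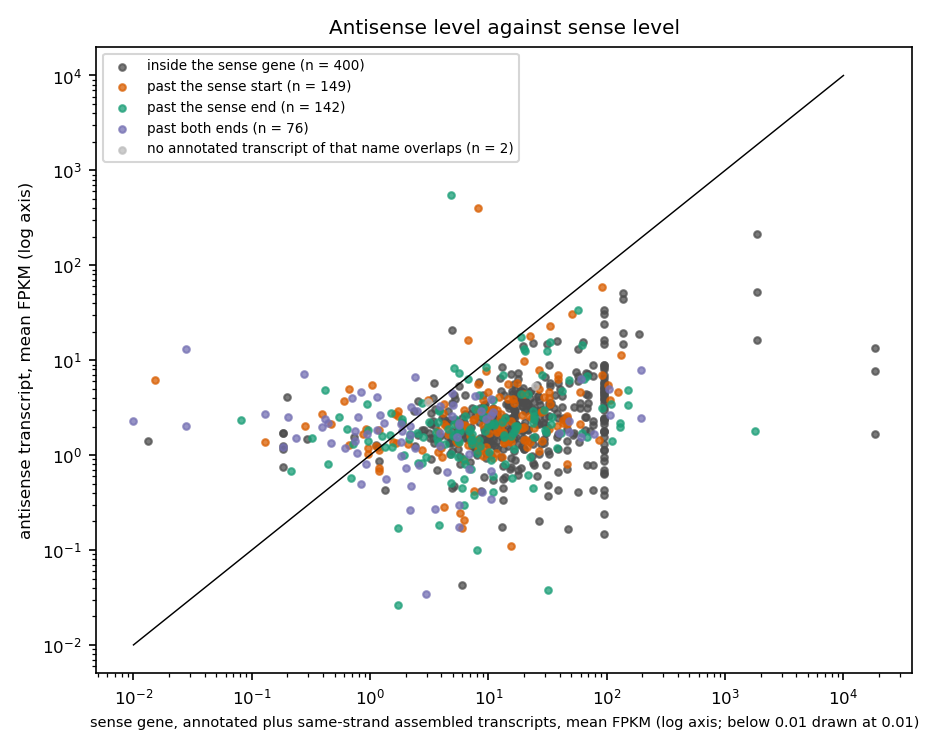
Mean FPKM over 6 libraries of 769 antisense exonic transcripts (vertical, log axis) against that of the sense gene with its same-strand assembled transcripts (horizontal, log axis), coloured by how the transcript lies on the sense gene. Most points lie below the line of equal levels, which 87 exceed, and the column of points near a sense level of 100 belongs to Ahnak.

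The number of antisense transcripts seen per lung did not separate the groups. Those above 0 numbered 871, 880 and 858 in the control rats and 887, 892 and 871 in the model rats. The ranges overlapped from 871 to 880, and the difference of means of 13.7 had an exact two-sided permutation p of 0.3, where 3 against 3 rats allow no p below 0.1. The summed FPKM was 9134, 20557 and 12277 in the controls and 10369, 31324 and 16815 in the model group. Here the rats of 1 group differed more than the group means did (exact permutation p = 0.6). Leaving out model replicate 2 turned the difference of the sums from 5513 to -398.

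Most of that sum came from a few loci over structural RNA genes. Without the loci holding transcripts opposite RNA families or ribosomal RNA, 899 antisense transcripts remained and the sum was 3277, 3430 and 3093 FPKM in the controls against 3264, 3056 and 3205 in the model group. These sums lay between 3056 and 3430 in all 6 lungs, with a difference of -91.9 (exact permutation p = 0.4). They made up 0.574% to 0.628% of all FPKM of a library, whereas all 993 made up 1.64% to 5.91%.

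**Figure D2:**
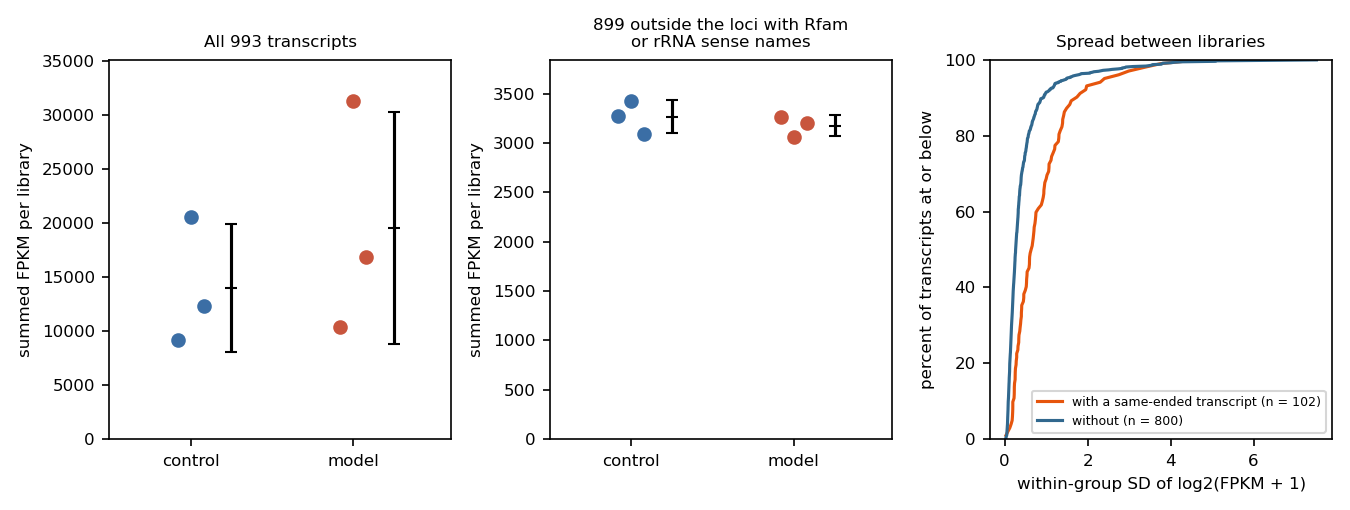
Summed FPKM per library of all 993 antisense exonic transcripts (left) and of the 899 outside RNA-family and ribosomal RNA loci (middle), with group mean and SD (n = 3), and the cumulative distribution of the within-group SD (right) for antisense transcripts with and without another transcript of the same ends. The groups overlap in both sums, and the SD is larger where a same-ended transcript exists (median 0.653 against 0.266).

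The most abundant transcripts illustrate this. MSTRG.30813.7 (chromosome 6, 2 exons, 284 bases) lay over a copy of RF00017, the family of the 7SL RNA of the signal recognition particle. It was at 0.0273, 10006 and 0 FPKM in the controls and 0, 12704 and 3199 in the model group, while the annotated copy on the other strand was at 5135 to 14999 FPKM in all 6 libraries. High and absent values thus occurred in both groups, and the 2 groups overlapped fully. MSTRG.201.33, opposite AABR07000398.1, was at 0.0490, 2859 and 0.0206 FPKM in the controls and 1247, 216 and 23.6 in the model group. Another transcript of that locus, MSTRG.201.24, was at 2157, 0 and 4127 against 620, 2369 and 0 FPKM, and was high in some libraries in which the first was near 0.

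MSTRG.6493.1 was opposite Ikzf3, which encodes Aiolos, a transcription factor of lymphocytes. It was at 3.91, 5.45 and 4.81 FPKM in the controls and at 4.08, 1666 and 1608 in the model group. Model rats 2 and 3 were far above the other 4 libraries, and model rat 1 was within the range of the controls (log2 fold change 5.39, adjusted p = 0.945). The transcript ended at position 86430238 of chromosome 10, inside a copy of RF00004, the family of the U2 spliceosomal RNA, at 86430067 to 86430256 on the other strand. That copy was at 19252, 7129 and 10325 FPKM in the controls and 8352, 1688 and 256 in the model group, lowest in the 2 libraries in which the antisense transcript was high. The part of U2 reads in the result was not tested.

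The transcripts opposite RF00002, the family of the 5.8S ribosomal RNA, numbered 47 on 5 chromosomes. The most abundant of them were MSTRG.199.15, at 0, 603 and 527 FPKM in the controls and 450, 1332 and 1090 in the model group, MSTRG.199.17, at 299 to 995 in all 6 libraries, MSTRG.199.9, at 54.4 to 1095, and MSTRG.30246.2, at 352 to 1344. The 47 summed to 3144, 3586 and 4246 FPKM in the controls and to 4729, 8085 and 6733 in the model group. The sums did not overlap between the groups, but the copies of this RNA share reads. Of the 12 transcripts opposite RF00560, a family of small nucleolar RNAs, 8 were tested. All 12 summed to 127, 279 and 150 FPKM in the controls and 221, 98.6 and 153 in the model group. The 9 transcripts opposite AABR07000398.1 summed to 2461, 3098 and 4617 against 2066, 3191 and 1467. Since such families have many near-identical copies, the level of 1 copy is uncertain, and this holds for the copies of RF00017 and RF00004 given above.

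Between the groups, 16 of the 902 tested antisense transcripts passed both thresholds, an unadjusted limma p of at most 0.05 and a 2-fold ratio of group means. Of these, 7 were higher and 9 lower in the model group. That is 1.77%, where 2.98% of all 64867 transcripts tested did so (1.22% higher, 1.76% lower). At the p threshold alone there were 34 (3.77%, against 4.53% of all transcripts), and the groups did not overlap for 99 (10.98%, against 10.4%). The median log2 fold change was -0.04 for the antisense transcripts and -0.02 for all. Thus the antisense exonic transcripts did not stand out from the transcriptome in how many differed. The count rose to 33 without control replicate 1 and to 27 without model replicate 3. The share of all transcripts in those fits is not given here, so the rise is not a result about antisense transcripts. After Benjamini–Hochberg adjustment over all 64867 transcripts, 1 remained below 0.05, where 0.0277% of all transcripts did.

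**Figure D3:**
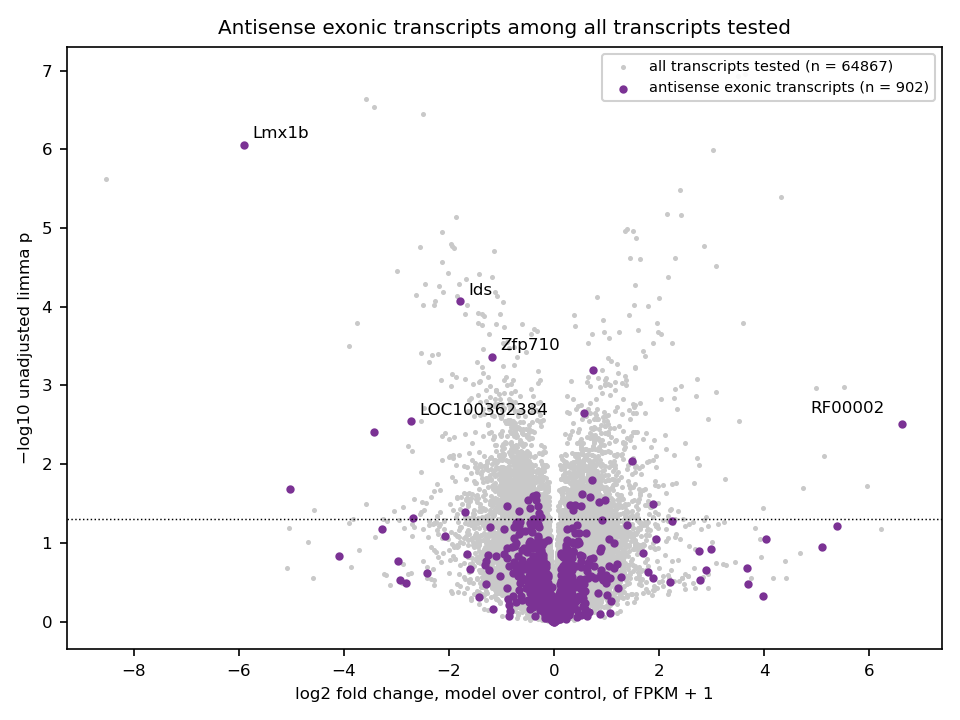
Log2 fold change, model over control, of FPKM + 1 (horizontal) against -log10 of the unadjusted limma p (vertical) for 64867 transcripts, with the 902 antisense exonic transcripts in purple. The dotted line marks the unadjusted threshold of 0.05, which 34 antisense transcripts pass, and the one opposite Lmx1b stands apart at a log2 fold change of -5.90.

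That transcript was MSTRG.22583.1, opposite Lmx1b. Lmx1b encodes a LIM-homeodomain transcription factor of dorsal limb, kidney and midbrain development. The transcript had 2 exons and 211 bases, was on the plus strand of chromosome 3 from 12680651 to 12734856, and crossed the annotated start of the gene. It was at 99.2, 84.1 and 64.2 FPKM in the control rats and at 0.474, 0.787 and 0 in the model rats. All controls were far above all model rats (log2 fold change -5.90 ± 0.27 SE on the scale of FPKM + 1, adjusted p = 0.00938). The annotated Lmx1b transcript was listed at 0 in the controls and reached 0.0329 FPKM at most in the model group. With the assembled transcripts on its strand, Lmx1b was at 0, 732 and 1.31 FPKM in the controls and 433, 315 and 273 in the model group, which overlapped (adjusted p = 0.950).

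The assembled models beside it had other values. MSTRG.22583.2 and MSTRG.22583.3, both of 205 bases, had the same start and ended within 14 and 4 bases of the same end. The first was at 0, 0.942 and 11.2 FPKM in the controls and 0.00268, 94.1 and 0 in the model group, and the second at 0, 0.922 and 0 against 34.9, 1.21 and 0. Model rat 2 thus had about as much of MSTRG.22583.2 as the control rats had of MSTRG.22583.1. Summed over the 3 same-ended transcripts, the values were 99.2, 86.0 and 75.4 FPKM in the controls and 35.3, 96.1 and 0 in the model group. These sums overlapped between the groups, and the log2 fold change was -2.52 ± 1.68 (adjusted p = 0.942). Over all 8 transcripts of the locus the sums were 171, 141 and 201 FPKM in the controls and 56.5, 98.5 and 98.4 in the model group, without overlap (log2 fold change -1.04 ± 0.25, past both thresholds, adjusted p = 0.935). On the strand of Lmx1b, the assembled transcript MSTRG.22584.1 had the same ends within 1 base and was at 0 to 180 FPKM, and MSTRG.22584.2 shared one of these ends and was at 0 to 701 FPKM. The adjusted p of MSTRG.22583.1 itself rose to 0.0907 at a pseudocount of 0.1 and to between 0.0540 and 0.0807 in 4 of the 6 fits without 1 library (control replicate 2 or 3, model replicate 1 or 2).

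A difference over a whole locus was also seen opposite the 3′ end of Ids, which encodes iduronate 2-sulfatase, a lysosomal enzyme that degrades dermatan and heparan sulfate. MSTRG.35012.2 was a single exon of 3287 bases on the plus strand of chromosome 8, from 69446518 to 69449804, and overlapped the annotated end of Ids by 4 bases. It was at 3.34, 4.69 and 4.72 FPKM in the controls and 0.714, 0.385 and 0.462 in the model group, without overlap (log2 fold change -1.78 ± 0.18, adjusted p = 0.116). Its same-ended partner MSTRG.35012.1 was at 3.04, 0.193 and 6.11 FPKM in the controls and listed at 0 in the 3 model rats, whereas MSTRG.35012.3 was at 2.17, 2.14 and 3.22 against 2.98, 2.74 and 2.41. The 3 transcripts are the whole locus, and their sum was 8.54, 7.02 and 14.1 FPKM in the controls and 3.70, 3.12 and 2.87 in the model group. No control was as low as any model rat (log2 fold change -1.31 ± 0.24, past both thresholds, adjusted p = 0.935). Ids itself, with its same-strand isoforms, was at 24.0 to 27.5 FPKM in the controls and 19.6 to 25.1 in the model group (adjusted p = 0.950).

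Opposite Zfp710, which encodes a zinc finger protein, 2 of 4 antisense transcripts passed the thresholds in opposite directions. MSTRG.2179.4 (chromosome 1, minus strand, 141763450 to 141782481, 3 exons, 756 bases) was listed at 0 in all controls and was at 2.37, 0.526 and 3.20 FPKM in the model rats (adjusted p = 0.945). MSTRG.2179.1, with 1437 bases and a different 3′ end, was at 1.66, 1.39 and 1.76 FPKM in the controls and 0.0895, 0.378 and 0 in the model group (log2 fold change -1.18 ± 0.16, adjusted p = 0.284). The longest, MSTRG.2179.3, was at 1.97 to 3.07 FPKM in the controls and 2.81 to 3.20 in the model group. All 4 summed to 3.64, 4.46 and 4.48 FPKM in the controls and to 5.28, 5.45 and 6.65 in the model group. The sums did not overlap, with a log2 fold change of 0.39 ± 0.13 (past the unadjusted threshold, adjusted p = 0.935), and Zfp710 with its isoforms was at 15.9 to 18.8 FPKM against 14.6 to 18.2 (adjusted p = 0.950).

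Opposite LOC100362384, an uncharacterised locus, MSTRG.10361.1 (chromosome 13, minus strand, 89247274 to 89253619, 2 exons, 806 bases) reached into the sense gene by 3 bases. It was at 27.6, 35.5 and 30.1 FPKM in the controls and 5.78, 7.28 and 1.001 in the model group, again without overlap (log2 fold change -2.73 ± 0.55, adjusted p = 0.677). The other transcript of the locus, MSTRG.10361.2, shared its 3′ end and did not reach the sense gene. Its values were 8.55, 2.31 and 19.1 FPKM against 18.0, 11.6 and 18.2. For the locus as a whole the mean was 41.0 FPKM in the controls and 20.6 in the model group (log2 fold change -0.95 ± 0.15, past the unadjusted threshold, adjusted p = 0.718). The sense gene was at 16.9 to 24.0 FPKM in the controls and 22.7 to 23.7 in the model group.

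**Figure D4:**
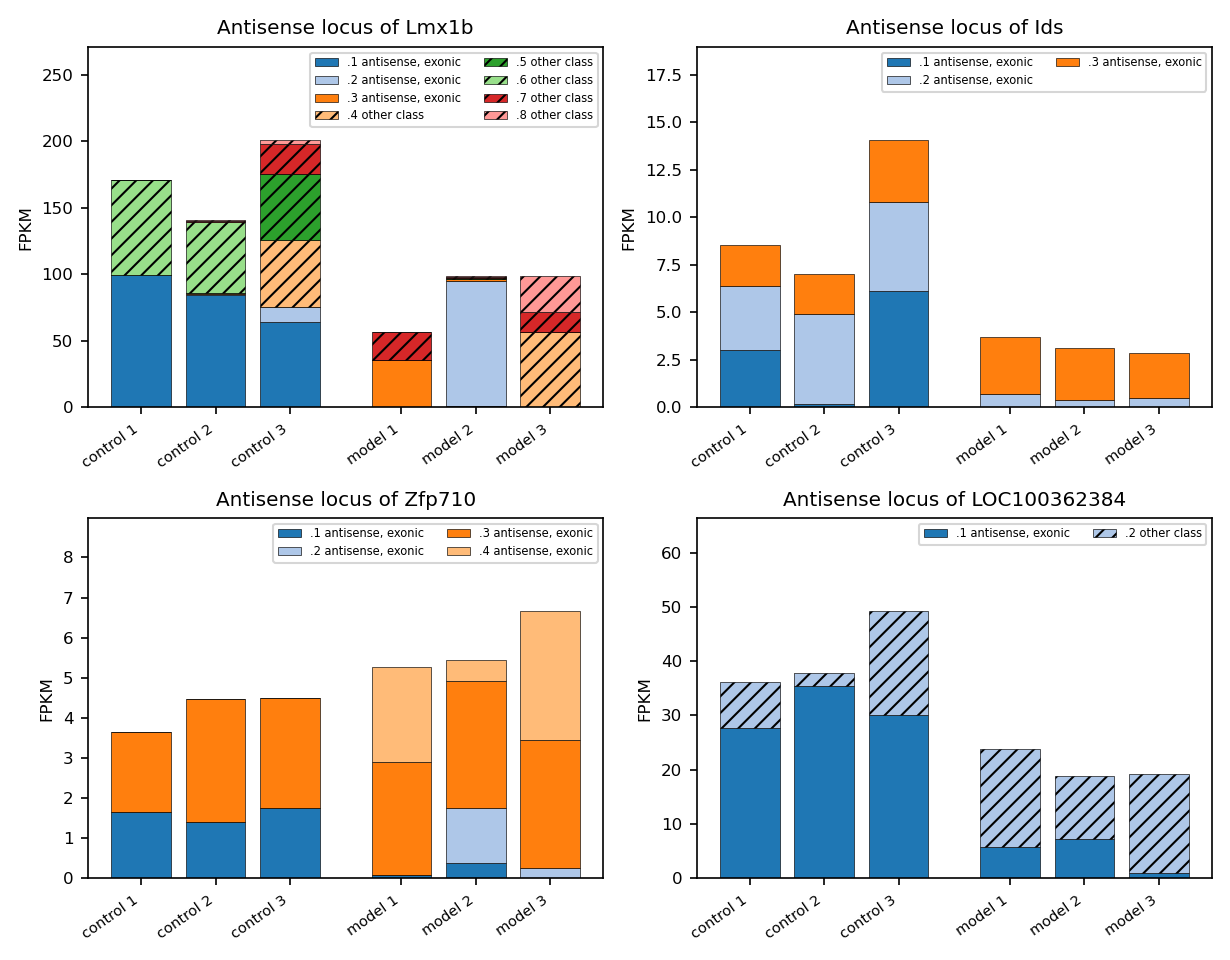
FPKM per library, stacked by transcript, of the antisense loci of Lmx1b, Ids, Zfp710 and LOC100362384; plain bars are antisense exonic transcripts and hatched bars other transcripts of the locus, numbered as in their identifiers. At Lmx1b, Ids and LOC100362384 every control bar is taller than every model bar, and at Zfp710 every model bar is taller than every control bar.

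Among the higher ones, MSTRG.23287.1 crossed the start of the annotated transcript of Calcrl, which encodes the receptor of calcitonin gene-related peptide and adrenomedullin and is abundant in lung endothelium. It had 2 exons and 10214 bases on chromosome 3, from 71793484 to 71813909. Assembled isoforms of Calcrl began further upstream, so that the transcript lay within them. It was at 8.45, 0.612 and 1.09 FPKM in the controls and 9.94, 11.4 and 10.8 in the model group (log2 fold change 1.88 ± 0.67, adjusted p = 0.945). Control rat 1 was close to the model rats and the other controls were far below them. Calcrl with its isoforms was at 92.8 to 102 FPKM in the controls and 74.5 to 100.6 in the model group (adjusted p = 0.950).

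The other transcripts past both thresholds were mostly at low levels. MSTRG.23636.1, opposite the homeobox gene Meis2, was at 1.07, 0.108 and 1.201 FPKM in the controls and 2.12, 2.35 and 1.89 in the model group. With MSTRG.23636.2, which was at 4.53 FPKM in control rat 2, its locus summed to 1.07, 4.63 and 1.201 against the same model values, and the groups overlapped (log2 fold change 0.08, adjusted p = 0.990). The one opposite Lmbrd1, a lysosomal cobalamin transport protein, was at 0.368 to 0.817 against 1.05 to 1.53, and that opposite the peptidase gene Dpp9 at 0 to 0.0617 against 0.229 to 2.13. MSTRG.33255.1, opposite AABR07058441.1, was at 0.479, 0.382 and 0.731 FPKM against 1.87, 1.81 and 0.937. All 4 antisense transcripts of that gene summed to 5.47, 3.97 and 6.21 FPKM in the controls and 6.53, 5.94 and 4.61 in the model group, which overlapped. The remaining 4 transcripts past both thresholds carried the names of structural RNA genes, though no annotated transcript of that name overlapped the one named for RF00560. MSTRG.199.8 opposite RF00002 was at 24.9, 0 and 0 FPKM in the controls and 507, 215 and 228 in the model group, and MSTRG.28221.16 of the same family at 132, 177 and 2.32 against 0, 1.28 and 0. Summed over its 31 transcripts, the locus of the latter went the other way, from a mean of 1042 to 1571 FPKM (log2 fold change 0.60, adjusted p = 0.935). The transcript opposite Rn7sl1 was at 9.67 to 29.7 against 0.144 to 15.3 FPKM and that named for RF00560 at 0.865 to 2.49 against 0 to 0.835. The adjusted p of these 8 was between 0.692 and 0.945, and the loci of Meis2, Lmbrd1, Rn7sl1 and both RF00002 transcripts did not pass the unadjusted threshold as sums.

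**Figure D5:**
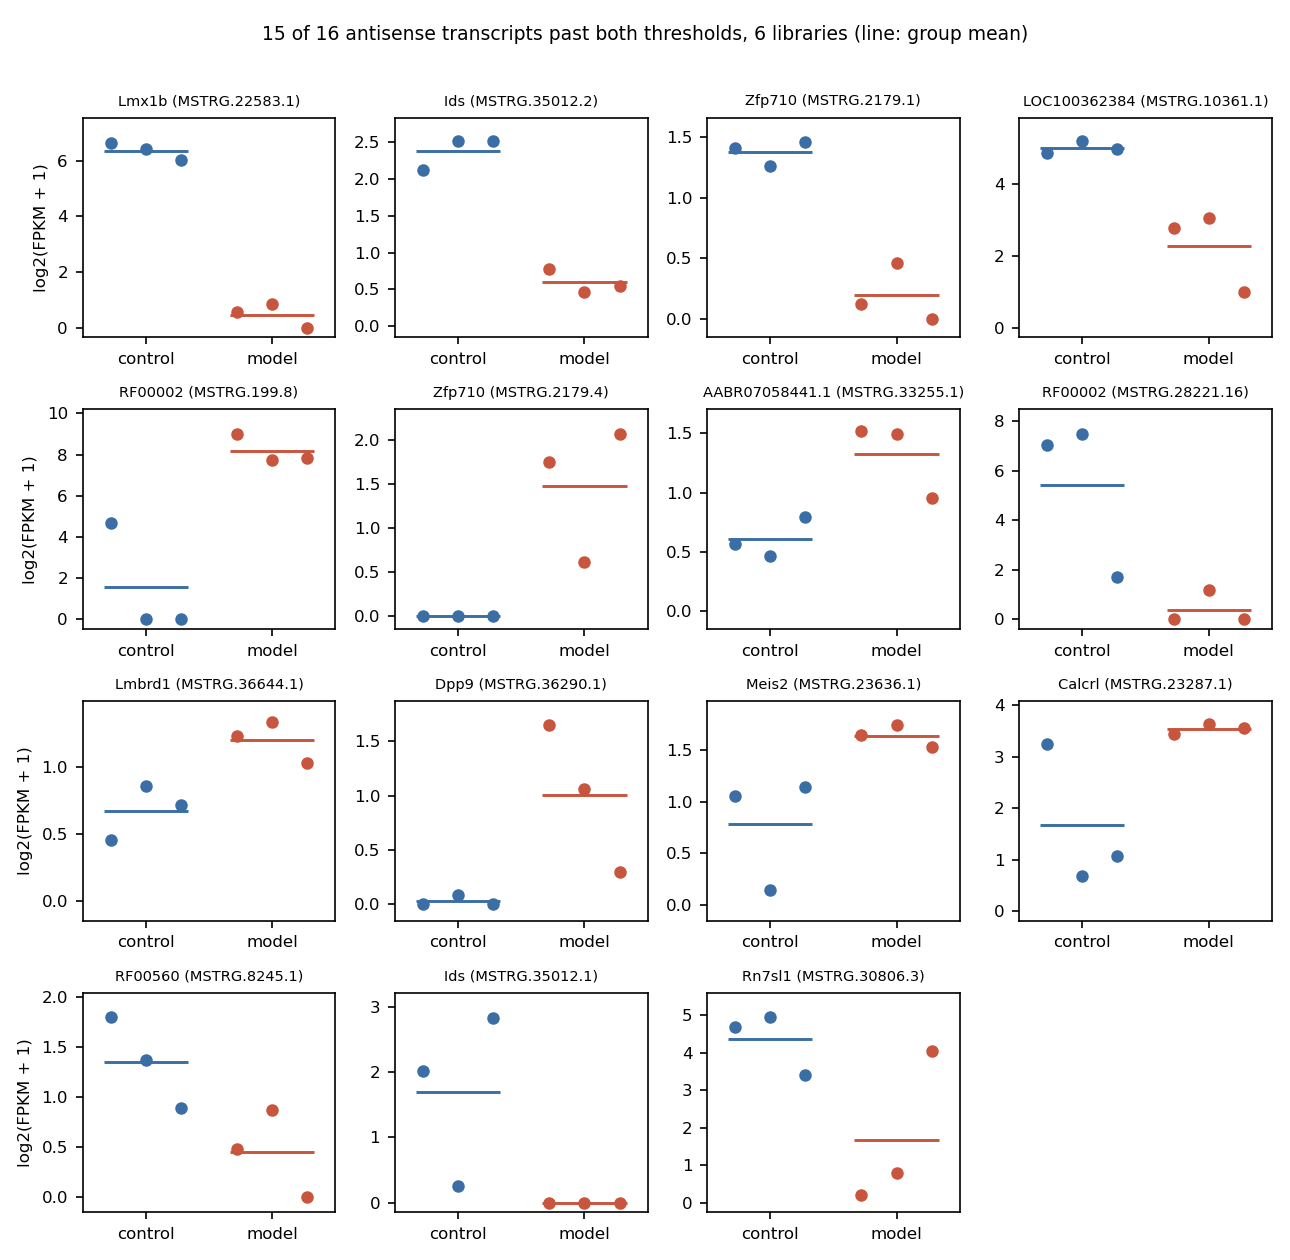
Level of 15 of the 16 antisense exonic transcripts past both thresholds, as log2(FPKM + 1), in the 3 control (blue) and 3 model (red) libraries, with the group mean as a line and panels in order of p. At Lmx1b all controls lie above 6 and all model rats below 1, whereas at Calcrl and Rn7sl1 1 library of a group lies near the other group.

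Smaller differences between close replicates also passed the p threshold. MSTRG.22315.1, inside the tubulin gene Tubb4b, was at 10.8, 10.2 and 9.51 FPKM in the controls and 17.0, 13.8 and 16.4 in the model group (log2 fold change 0.58, adjusted p = 0.623). Its partner MSTRG.22315.2, 2 bases longer, was at 9.002, 6.94 and 8.38 FPKM against 2.56, 8.98 and 4.99, in the other direction. MSTRG.15454.1 opposite AABR07027811.2 was at 3.57 to 6.97 FPKM in the controls and 7.84 to 10.3 in the model group (adjusted p = 0.945). Lower in the model group was MSTRG.15717.1, opposite the aldo-keto reductase gene Akr1cl, at 15.98 to 19.3 FPKM in the controls and 12.4 to 14.5 in the model group (adjusted p = 0.945). None of these 3 had an adjusted p below 0.05.

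A question raised by antisense transcripts is whether they move with or against the gene they overlap. Of the 643 sense genes, 593 could be tested on annotated transcripts, and 17 passed both thresholds (2.87%, against 2.74% of 18967 named genes), 8 higher and 9 lower (1.32% and 1.42% of all named genes). With same-strand assembled transcripts added, 604 could be tested and 1 passed both thresholds (0.166%, against 1.49% of all named genes). This was Baz1a, a chromatin remodelling gene, at a mean of 3076 FPKM in the controls and 497 in the model group, of which the annotated transcripts held 5.35 and 5.32. No sense gene had an adjusted p below 0.05 in either form, where 0.0369% of all named genes did on annotated transcripts, while 28 (4.72%, against 4.35% of all) had an unadjusted p of at most 0.05 there. Across 813 antisense transcripts with a tested sense gene, the log2 fold changes of transcript and gene had r = 0.08 with all same-strand transcripts and r = 0.01 with annotated ones, over the same 6 libraries, and 472 and 433 pairs had the same sign. Of the 30 antisense transcripts with p at most 0.05 and a tested sense gene, the same-strand level also had p at most 0.05 for 1. That was MSTRG.15896.1 opposite Mindy3, a deubiquitinase gene, at 2.69 to 3.11 FPKM in the controls and 2.03 to 2.25 in the model group (log2 fold change -0.35, adjusted p = 0.945), with Mindy3 at a mean of 10.0 FPKM in the controls and 7.85 in the model group.

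The ratio of antisense to annotated sense level was tested as well. Of 848 tested ratios, 19 passed both thresholds, where 2.69% of 28413 assembled transcripts did. That of MSTRG.22583.1 to Lmx1b had an adjusted p of 0.0210, where 0.0176% of all ratios were below 0.05, and the next smallest was 0.542. With annotated Lmx1b at or near 0 in every library, this ratio holds little beside the level of the transcript. Its adjusted p was 0.899 with same-strand transcripts in the sense level, 0.544 with the replicate number as a block and between 0.0588 and 0.240 in the 6 fits without 1 library. Among transcripts with a mean of at least 1 FPKM, the 3 smallest p in the lower direction were those of Lmx1b, Ids and LOC100362384. In the higher direction they were those of MSTRG.199.8, of MSTRG.2179.4 and of MSTRG.4886.1 opposite Spsb3, an adaptor of ubiquitin ligases. The last was itself at 0.591 to 1.75 FPKM in the controls and 1.31 to 2.58 in the model group, which overlapped (log2 difference of the ratio 1.23, adjusted p = 0.979).

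Ahnak had the most antisense transcripts of all sense genes. It encodes a very large scaffold protein built of repeated units. Its 57 antisense transcripts formed a single locus on chromosome 1 between 225200373 and 225211153, with 296 to 1427 exonic bases and a median of 7572 bases spliced out. None of the 48 tested passed the p threshold. They summed to 318, 267 and 223 FPKM in the controls and 317, 244 and 321 in the model group, which overlapped. Ahnak itself was at 75.6, 97.4 and 93.4 FPKM in the controls and 106, 91.0 and 107 in the model group with its same-strand isoforms, although the annotated transcript was at no more than 0.147 FPKM. The antisense sum was thus above the sense level in each library. It adds 57 short models of the same stretch, and the part of sense reads in it was not tested. Abundant antisense transcripts also lay opposite genes with repeated or duplicated sequence that were named after their values were seen. These were Hba-a2 (MSTRG.4952.1, at 142 to 209 FPKM in the controls and 211 to 284 in the model group, adjusted p = 0.945) and Ubb (MSTRG.5485.1, 42.9 to 63.4 against 49.98 to 88.5). Near-identical copies share reads, which makes such levels uncertain.

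Antisense transcripts with a same-ended partner varied more between libraries of 1 group. Another transcript of the same locus with both ends within 20 bases existed for 139 of the 993. Among the tested ones, the within-group SD of log2(FPKM + 1) had a median of 0.653 for 102 with such a partner and 0.266 for 800 without. For all assembled transcripts the same medians were 0.435 and 0.294. Of the 16 antisense transcripts past both thresholds, 5 had such a partner. When FPKM were summed over same-ended transcripts, 13 of 850 sums passed both thresholds (2.89% of all sums did) and none had an adjusted p below 0.05, with 31 at an unadjusted p of at most 0.05 by limma. Summed over assembly loci, 11 of 702 did (2.22% of all loci), again with none below an adjusted p of 0.05 and 37 at an unadjusted p of at most 0.05. The shares of all sums and of all loci at the unadjusted p alone are not given here. The 31 and the 37 are therefore not a result about antisense transcripts.

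The sense genes were also read by function, from gene lists. Of 120 listed genes of extracellular matrix and fibrosis, 8 had antisense transcripts, 12 in all. None of the 11 tested passed the p threshold (median log2 fold change 0.04, against -0.02 for all transcripts). MSTRG.35697.1 opposite the collagen VI gene Col6a5 was at 16.7, 10.1 and 4.53 FPKM in the controls and 12.1, 7.91 and 9.03 in the model group. MSTRG.10055.1 opposite Hmcn1, an extracellular matrix protein gene, was at 4.57, 4.77 and 3.396 against 4.76, 3.98 and 3.64, and both sets overlapped. Smad6, an inhibitor of BMP signalling, had 4 antisense transcripts, of which MSTRG.34998.5 was at 0.343, 6.11 and 3.00 FPKM in the controls and 2.92, 3.65 and 13.1 in the model group. Of the listed fibrosis genes themselves, with same-strand isoforms, 2 of 106 had an unadjusted p of at most 0.05 and were higher, and 2 were lower (4.46% of all named genes had such a p).

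Opposite lineage transcription factors there were 7 antisense transcripts of 4 genes, Lmx1b, Meis2, Hoxa4 and Runx1. Of the 6 tested, 2 passed both thresholds, those of Lmx1b and Meis2 given above, in opposite directions, where 2.98% of all transcripts tested did. Neither passed both when summed, Lmx1b over same-ended transcripts (its whole locus did) and Meis2 over its locus. MSTRG.25804.1, which crossed the start of Hoxa4, was at 3.20, 0 and 0 FPKM in the controls and 3.35, 3.63 and 2.78 in the model group. Control rat 1 was within the range of the model rats (adjusted p = 0.945).

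Opposite chromatin enzymes there were 6 transcripts of 5 genes, and none of the 5 tested passed the p threshold. MSTRG.22291.1 opposite the histone methyltransferase gene Ehmt1 was among the steadiest, at 3.01, 2.72 and 2.95 FPKM in the controls and 3.05, 3.12 and 3.02 in the model group. MSTRG.14877.1 opposite Nsd1, another histone methyltransferase, was at 1.88, 2.15 and 2.38 against 1.52, 1.89 and 1.97. MSTRG.28804.1 opposite the histone demethylase gene Kdm4a was at 4.84, 9.86 and 7.50 FPKM against 0, 10.1 and 6.63.

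RNA-binding and splicing factors had 15 antisense transcripts of 6 genes, all tested, and none passed the p threshold (median log2 fold change -0.11). Of these, 7 lay opposite Celf2, a regulator of alternative splicing, and 3 opposite the RNA helicase gene Ddx5. MSTRG.6806.1 opposite Ddx5 was at 6.90, 6.51 and 12.8 FPKM in the controls and 8.24, 7.79 and 1.87 in the model group, and its partner MSTRG.6806.2 was at 3.36, 6.33 and 7.10 against 4.49, 3.87 and 1.30. MSTRG.21384.2 opposite the helicase gene Ddx39b was at 0.394, 7.13 and 4.25 FPKM against 8.06, 9.03 and 0. Of the circadian and immediate early genes only Rgs2, a regulator of G protein signalling, had antisense transcripts. Its 3 transcripts, MSTRG.10002.1, MSTRG.10002.2 and MSTRG.10002.3, ranged from 0 to 7.81 FPKM in the controls and from 0 to 6.15 in the model group, and none passed the unadjusted threshold.

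The 2 microRNA genes had antisense transcripts in every lung. That of Mir30a was at 8.51, 7.37 and 1.81 FPKM in the controls and 6.58, 4.76 and 7.87 in the model group (adjusted p = 0.966). That of Mir342 was at 2.01, 2.66 and 2.43 against 2.46, 2.44 and 3.25 FPKM (adjusted p = 0.947). In both the groups overlapped.

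Markers of lung cell types were the sense genes of 6 antisense transcripts. There were 3 opposite alveolar epithelial markers, 1 opposite an airway marker, 2 opposite endothelial markers, and none opposite fibroblast, macrophage, lymphocyte, mesothelial or cardiac muscle markers. MSTRG.21786.1 opposite Rtkn2, a marker of type I alveolar cells, was at 12.8 to 15.8 FPKM in the controls and 14.6 to 16.6 in the model group (adjusted p = 0.945), and that opposite Egfl7, an endothelial secreted factor, at 14.6 to 22.6 against 0 to 16.3 (adjusted p = 0.945). All 5 tested had p above 0.05. The summed level of 18 alveolar markers was 4197 to 5771 FPKM in the controls and 5029 to 6083 in the model group, so that the lung label matched its defining genes. The summed levels overlapped between the groups for every cell type except mesothelium, at 39.2 to 54.1 FPKM in the controls and 56.6 to 63.0 in the model group over 5 measured genes. None of these 5 genes had an unadjusted limma p of at most 0.05, and the groups did not overlap for 10.4% of all transcripts tested. The part of mesothelium in the results above was not tested.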

How the data were processed

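Total RNA of 6 rat lungs was depleted of ribosomal RNA and sequenced from stranded libraries, and the processing notes name HISAT2, StringTie and TopHat. Per the study's methods, transcripts were assembled by StringTie and quantified with Ballgown by the authors; tool settings beyond the defaults and the genome build are not given in the sources used here. The deposited table held FPKM and coverage per transcript and library, which the authors calculated per length and per total of mapped fragments. Its circular RNA counterpart was not used here. The depth of a library is not held by FPKM, but coverage per unit of FPKM, which follows it, lay between 6.39 and 7.33, so that the libraries were of like depth.

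From these values limma (version 3.58.1, R 4.3.3, with a trend of the variance) was fitted to log2(FPKM + 1), two-sided, over the 64867 transcripts above 0 in at least 3 libraries, without covariates, and p-values were adjusted by Benjamini–Hochberg over all of them. A fold change on this scale understates the change of low transcripts. A transcript passed the thresholds with an unadjusted p of at most 0.05 and group means of FPKM that differed at least 2-fold. The level of a sense gene was the sum over annotated transcripts of its name (18967 genes tested) or, as an alternative, also over assembled transcripts on the same strand. Values per library were compared by exact permutation tests. Samples were grouped by their labels, 3 rats a group, and p-values measure the spread between these rats.

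The transcripts and gene lists were chosen with earlier results of these data known. Transcripts were named by a rule: an adjusted p below 0.05, the 6 smallest p in each direction at a mean of at least 1 FPKM, the 8 highest levels, the 3 highest of each functional gene list, the 4 sense genes with the most antisense transcripts, the 3 smallest p of the ratio in each direction at a mean of at least 1 FPKM, and the length limit. Those opposite Calcrl, Meis2, Lmbrd1, Dpp9, Rn7sl1, Mindy3, Hoxa4, Rtkn2, Egfl7, Hba-a2, Ubb, Mir30a and Mir342, and MSTRG.2179.1, MSTRG.35012.1 and MSTRG.8245.1, were named after their values were seen. Sums over loci and over same-ended transcripts, and counts without RNA families, were added after seeing the data. Some transcripts that the rule names are not reported here.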

Additional observations from a re-analysis of the deposited data

How the results depend on the processing

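The number of antisense exonic transcripts past both thresholds was 16 and lay between 11 and 21 under the other settings, and between 18 and 33 with 1 library left out (6 to 15 higher, 12 to 18 lower). The 11 came from sums over assembly loci, of which 4 were higher. Those with an adjusted p below 0.05 went from 1 to 0 at pseudocounts of 0.1 and 0.01 and for sums over loci or same-ended transcripts, and ranged from 0 to 3 with 1 library left out. For the ratio to the sense level, the count of 1 became 0 at the same 2 pseudocounts, with same-strand assembled transcripts in the sense level and in each fit without 1 library, and ratios past both thresholds ranged from 16 to 34 with 1 library left out. Sense genes past both thresholds went from 17 to 9 where a mean of at least 1 FPKM was asked and to 1 with same-strand assembled transcripts. The difference of summed FPKM was -91.9 without RNA families and between -398 and 10080 with 1 library left out. MSTRG.28221.16 changed sign, to 0.60, when summed over its locus. The cause of these shifts was not tested, except that sums replace the transcripts they hold. Shares over all transcripts, genes or ratios under these settings are not given here, so the counts do not set the antisense transcripts apart.

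The replicate numbers are shared by both groups, but deviations of same-numbered libraries had correlations of 0.0085, 0.050 and -0.042, so that the numbers pair nothing beyond a name. With the replicate number as a block, 21 antisense transcripts passed both thresholds, 11 of them higher, and 0 had an adjusted p below 0.05, either by level or by ratio. The share of all transcripts in that fit is not given here either. For the transcripts named by rule, 260 of the repeats gave the same call, 45 lost it and 1 changed direction. Low transcripts rest on few reads, and an FPKM of 0 may be a failed estimate rather than absence.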
